A study of Homo sapiens with 6 samples.

Results

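COL1A1, COL3A1, THBS2, MFAP4, EFEMP2 and PRRX1 encode a pair of fibrillar collagens, 3 secreted proteins that associate with collagen or elastic fibres, and a transcription factor of mesenchymal cells. They are 6 of the 1161 genes for which counts were used here, and they were chosen by their difference between dormant and proliferating cancer cells in these same libraries. Every gene of the table was itself selected by the authors on that contrast. The differences between the populations are therefore given as a description, without a test, and no support is drawn from how many of the 6 genes moved one way.

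The cells were MDA-MB-231, a human triple negative breast cancer cell line, tagged with green fluorescent protein (GFP) and labelled with CellVue Claret (CV), a membrane dye that is diluted each time a cell divides. The cells reached the brain by injection into the internal carotid artery of C.B.17 SCID (severe combined immunodeficient) mice aged 6 to 8 weeks. These mice lack functional T and B lymphocytes but keep their own brain cells. At day 28 the left hemispheres of the brains were digested with collagenase and hyaluronidase, and myelin was removed. Cells were then sorted as dormant (GFP+CV+, dye kept) or proliferating (GFP+CV-, dye lost). There were 3 libraries of each population, and the libraries with the same replicate number came from the same pool of 10, 10 or 9 mice. The paper describes the 3 replicates as independent experiments, so pool and experiment cannot be told apart. No other genotype, agent or time point entered the comparison, and dormancy was defined by dye retention alone. The libraries were full-length cDNA made with Smart-seq2, which does not mark the strand. Counts summed over the listed genes were between 7978664 and 17928777 per library, with the lowest sum in dormant replicate 3. These sums cover only the listed genes and are not the sequencing depth.

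Fibrillar collagens are secreted as long procollagen chains, trimmed outside the cell, and assembled side by side into the fibrils that give connective tissue its tensile strength. Type I collagen contains the chain encoded by COL1A1, and type III collagen consists of chains encoded by COL3A1 and often forms fibrils together with type I. In the healthy brain such fibrils are largely restricted to the meninges and the walls of blood vessels, where fibroblasts and mural cells produce them. Matricellular proteins and microfibril-associated proteins bind to these fibres and regulate their assembly.

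The triple helix of a collagen is built of a repeat in which glycine is followed by a pair of other residues, and it is visible in the coding sequence as a codon starting with GG (written GGN) followed by a pair of other codons. In the COL1A1 transcript 338 such repeats followed one another without a break, over 1014 of 1464 codons (69.3%). In COL3A1 the unbroken run was 343 repeats, over 1029 of 1466 codons (70.2%). In the other 4 genes no run was longer than 2 repeats. One exon of 54 bases from each collagen is shown because it holds the repeat that sets both genes apart from the other 4. The exons lie within the coding sequence at chr17:50197949-50198002 (minus strand) and chr2:188988081-188988134 (plus strand) of GRCh38, and are written 5′ to 3′ on the strand of the gene with the GGN codons in capitals:
COL1A1 exon: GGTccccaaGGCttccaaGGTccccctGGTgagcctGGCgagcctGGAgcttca
COL3A1 exon: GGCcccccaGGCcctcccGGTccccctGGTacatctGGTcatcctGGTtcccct
Each holds 18 codons, of which 6 are GGN codons, so that each exon begins at a repeat and ends before the next.

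The same unit is visible in the exon structure. Of the 49 inner coding exons of COL1A1, 44 (89.8%) were a multiple of 9 bases long, and 21 were exactly 54 bases. COL3A1 also had 49 inner coding exons, of which 44 (89.8%) were a multiple of 9 and 24 were exactly 54 bases. Among the inner coding exons of the other listed genes with a MANE Select transcript, 1166 of 7845 (14.9%) were a multiple of 9 bases. THBS2 had 3 of 19, EFEMP2 2 of 8, MFAP4 0 of 4 and PRRX1 0 of 2.

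**Figure D1:**
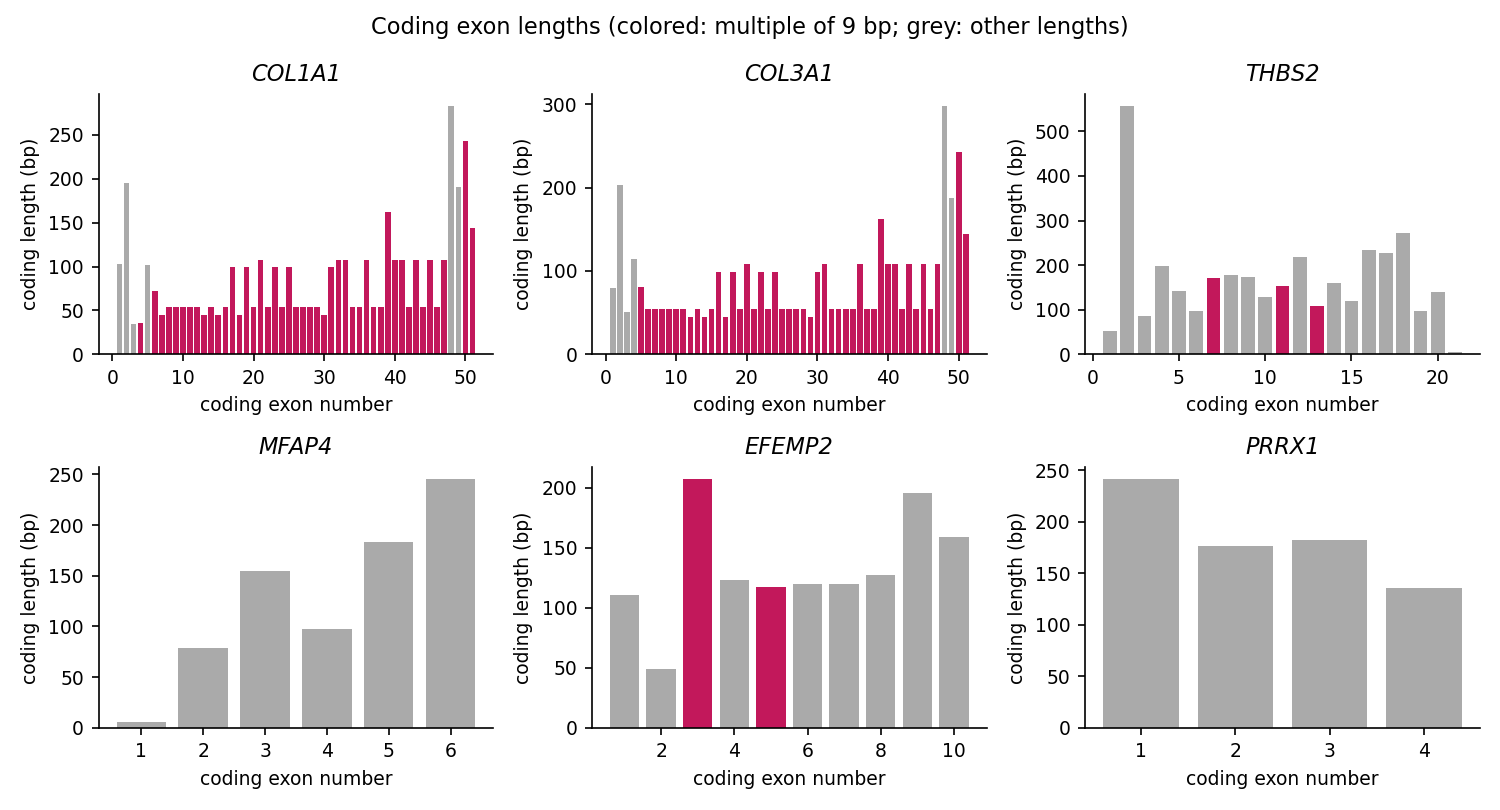
Length of each coding exon in bp (vertical axis, from 0, a separate scale in each panel) by its number along the MANE Select transcript (horizontal axis) for the 6 genes. Colored bars are multiples of 9 bp, which make up 44 of the 49 inner exons in both COL1A1 and COL3A1 and at most 3 in each of the other genes.

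COL1A1 (ENSG00000108821.13) encodes the pro-alpha1 chain of type I collagen and spans chr17:50184101-50201632 on the minus strand. Its normalized read counts, which are estimated counts divided by the size factor of the library, were 2633, 3783 and 3635 in proliferating replicates 1, 2 and 3. They were 15447, 25270 and 35947 in dormant replicates 1, 2 and 3. All dormant libraries were above all proliferating ones, and the lowest dormant value was 4.08 times the highest proliferating value. The means were 25555 ± 10253 and 3350 ± 626 (SD, n = 3 each), a ratio of 7.63. The fitted log2 fold change was 2.93 (SE 0.32).

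COL3A1 (ENSG00000168542.14) encodes the chain of type III collagen and spans chr2:188974373-189012746 on the plus strand. Its normalized counts were 1455, 1352 and 3838 in proliferating replicates 1 to 3, and 24777, 39897 and 25608 in dormant replicates 1 to 3. Proliferating replicate 3 was the highest of its population by a wide margin, and the populations did not overlap. The mean was 30094 ± 8500 in dormant and 2215 ± 1406 in proliferating cells (SD, n = 3 each), a ratio of 13.6 and a fitted log2 fold change of 3.76 (SE 0.46). Without proliferating replicate 3 the log2 fold change was 4.42.

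THBS2 (ENSG00000186340.15) encodes thrombospondin-2, a matricellular glycoprotein known to influence collagen fibril assembly and to inhibit angiogenesis, and spans chr6:169215780-169254050 on the minus strand. It was measured at 480, 1051 and 1052 normalized counts in proliferating replicates 1 to 3 and at 2101, 3269 and 2917 in dormant replicates 1 to 3. The groups were separate, with the lowest dormant library at 1.998 times the highest proliferating one. The mean in dormant cells was 2763 ± 599 and in proliferating cells 861 ± 330 (SD, n = 3 each), and the fitted log2 fold change was 1.68 (SE 0.37), the smallest of the 6 genes.

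MFAP4 (ENSG00000166482.11) encodes microfibril-associated protein 4, a secreted protein with a fibrinogen-like domain found on elastic fibres, and spans chr17:19383442-19387190 on the minus strand. It was at 17.4, 205 and 112 normalized counts in proliferating replicates 1 to 3, and at 1339, 3604 and 7954 in dormant replicates 1 to 3. It varied most of the 6 genes, with the highest library at 11.8 times the lowest among proliferating cells and at 5.94 times the lowest among dormant cells, yet the populations did not overlap. The means were 4299 ± 3362 and 111 ± 93.7 (SD, n = 3 each), a ratio of 38.6, and the fitted log2 fold change of 5.28 (SE 1.03) was the largest of the 6 and the least precise.

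EFEMP2 (ENSG00000172638.12) encodes fibulin-4, which is required for elastic fibre formation and for the activity of lysyl oxidase on collagen and elastin, and spans chr11:65866441-65873592 on the minus strand. Proliferating replicates 1 to 3 had 678, 750 and 451 normalized counts and dormant replicates 1 to 3 had 1189, 1994 and 3359. The populations lay closest together for this gene, since the lowest dormant value was 1.58 times the highest proliferating one. The means were 2181 ± 1097 in dormant and 627 ± 156 in proliferating cells (SD, n = 3 each), with a fitted log2 fold change of 1.80 (SE 0.44).

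PRRX1 (ENSG00000116132.11) is the only one of the 6 whose product acts in the nucleus. It encodes a homeodomain transcription factor of mesenchymal cells that is associated with epithelial-mesenchymal transition, and it spans chr1:170662728-170739421 on the plus strand. The gene had 126, 53.9 and 144 normalized counts in proliferating replicates 1 to 3 and 1463, 814 and 1680 in dormant replicates 1 to 3. Replicate 2 was the lowest library in both populations. The means were 1319 ± 451 and 107.96 ± 47.6 (SD, n = 3 each), a ratio of 12.2 and a fitted log2 fold change of 3.61 (SE 0.57).

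**Figure D2:**
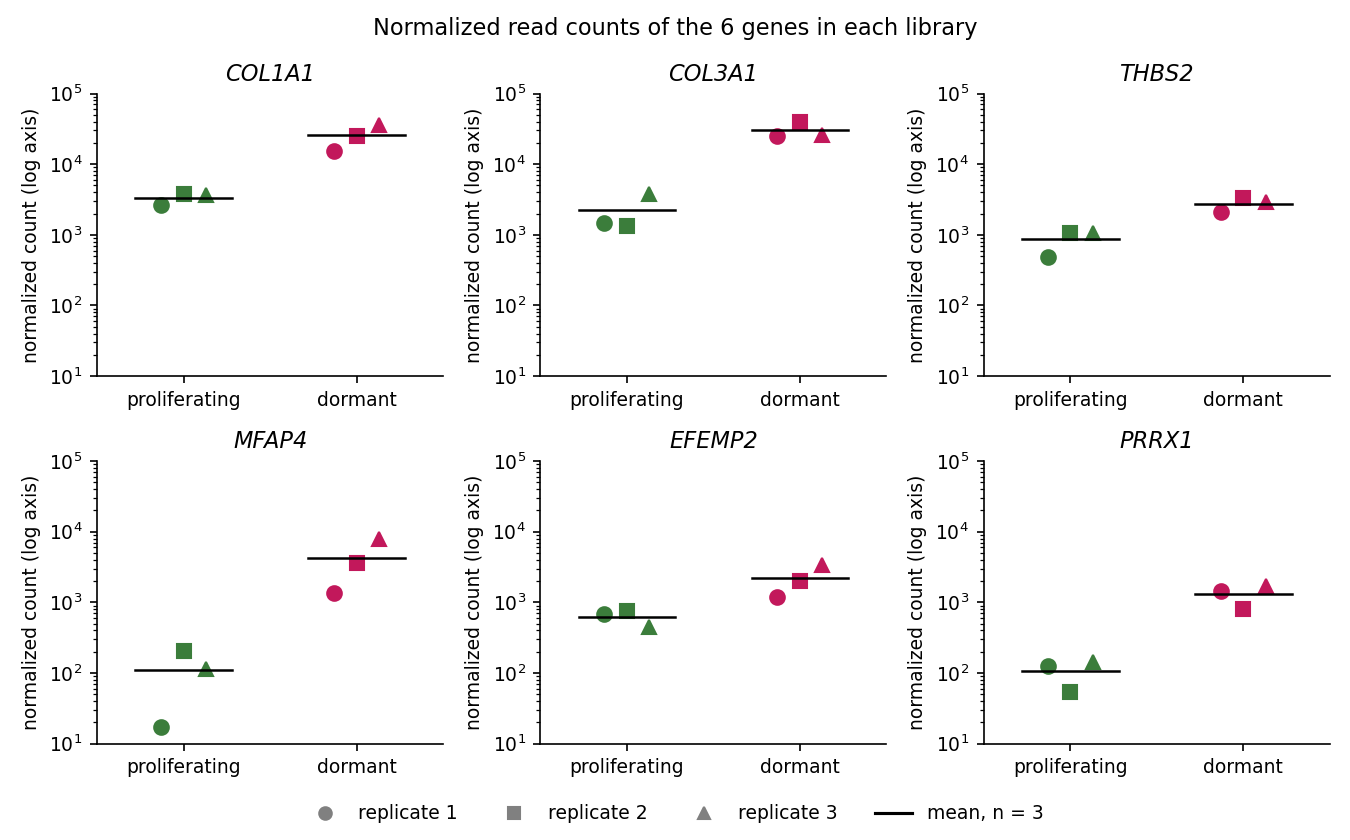
Normalized read counts (log axis, no unit) of the 6 genes in the 3 proliferating and 3 dormant libraries. Symbols mark the replicates and horizontal lines the population means; in each panel all dormant points lie above all proliferating points.

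In these bulk libraries, more cells that express a gene and more RNA of it per cell cannot be told apart. The dormant libraries were all above the proliferating ones for 6 of the 6 genes, and for 49.0% of all listed genes. A fitted change of at least 2-fold toward dormant cells was found for 6 of the 6 genes and for 42.8% of the listed genes. Since the same contrast chose the genes, nothing is read from these counts. By log2 fold change the 6 genes stood between rank 38 (MFAP4) and rank 297 (THBS2) of 1161, and by mean normalized count between rank 140 (COL3A1) and rank 794 (PRRX1).

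The 6 genes varied more between libraries of one population than the median listed gene did. The SD of log2 normalized counts within populations was 0.48 for COL1A1, 0.52 for THBS2, 0.60 for EFEMP2, 0.65 for COL3A1, 0.66 for PRRX1 and 1.57 for MFAP4, against a median of 0.41 over the listed genes. Libraries were ordered differently from gene to gene. Dormant replicate 3 was the highest library for COL1A1, MFAP4, EFEMP2 and PRRX1, and dormant replicate 2 was the highest for COL3A1 and THBS2. Dormant replicate 1 was the lowest dormant library for each of the genes except PRRX1.

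Within the pools of mice, the size of the difference varied by gene. For PRRX1 the dormant library had 11.6, 15.1 and 11.7 times the normalized count of the proliferating library from pools 1, 2 and 3, the narrowest relative range among the 6. The ratios for THBS2 were 4.38, 3.11 and 2.77. Those for COL1A1 were 5.87, 6.68 and 9.89, with the largest in pool 3. EFEMP2 also had its largest ratio in pool 3, with 1.75, 2.66 and 7.45. COL3A1 instead had its smallest ratio there, with 17.0, 29.5 and 6.67. MFAP4 had ratios of 77.0, 17.6 and 70.9.

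The balance of both collagens is a measure that the choice of genes did not fix. Expressed per kb of annotated exons, the COL3A1 level was 0.737, 0.476 and 1.41 times the COL1A1 level in proliferating replicates 1, 2 and 3. In dormant replicates 1, 2 and 3 it was 2.14, 2.10 and 0.949 times the COL1A1 level. COL3A1 was thus above COL1A1 in dormant replicates 1 and 2 and in proliferating replicate 3, and below it in the remaining libraries. The populations overlapped in this ratio, and in pool 3 its order was the reverse of that in pools 1 and 2.

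**Figure D3:**
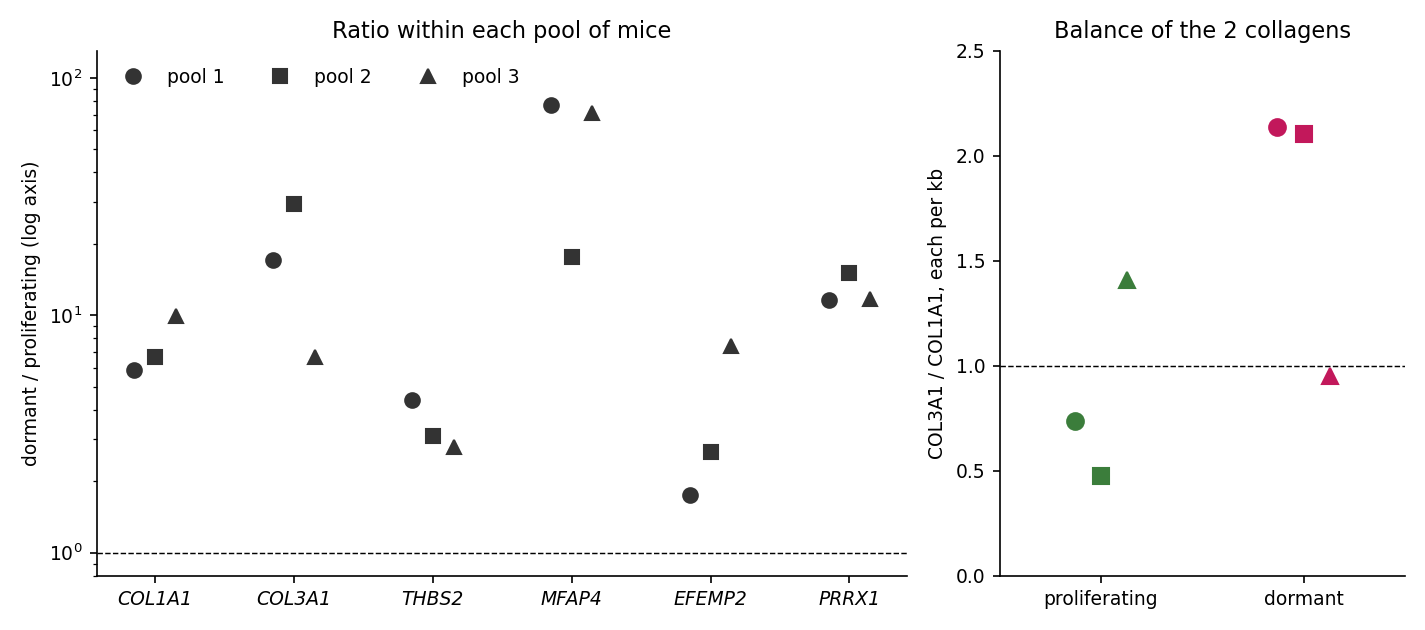
Left, ratio of normalized counts, dormant over proliferating, within each pool of mice (log axis; symbols mark the pools). Right, ratio of the COL3A1 to the COL1A1 level per kb in each library. COL3A1 has its smallest ratio in pool 3 while COL1A1 and EFEMP2 have their largest there, and the balance of the collagens overlaps between the populations.

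Levels per kb of annotated exons, in normalized counts per kb, allow the genes to be ordered within a population. In proliferating cells the order was COL1A1 with 372 ± 69.5, COL3A1 with 328 ± 208, THBS2 with 120 ± 45.9, EFEMP2 with 116 ± 29.0, MFAP4 with 53.0 ± 44.6 and PRRX1 with 13.1 ± 5.78 (SD, n = 3). The ranges of COL3A1 and THBS2 did not overlap, and every other pair of neighbours did. In dormant cells COL3A1 came first with 4453 ± 1258, followed by COL1A1 with 2837 ± 1138, MFAP4 with 2045 ± 1599, EFEMP2 with 404 ± 203, THBS2 with 384 ± 83.2 and PRRX1 with 160 ± 54.6 (SD, n = 3). The ranges of MFAP4 and EFEMP2 did not overlap, and neither did those of THBS2 and PRRX1, although MFAP4 at its lowest (637) was close to EFEMP2 at its highest (622). The other neighbours overlapped. MFAP4 thus stood below EFEMP2 by its mean in proliferating cells and above it in dormant cells. With the length of the MANE Select transcript in place of all annotated exons, EFEMP2 stood at place 3 and THBS2 at place 4 in proliferating cells, and the order in dormant cells was the same. On that scale the ranges of MFAP4 and EFEMP2 and those of THBS2 and PRRX1 overlapped in dormant cells, whereas EFEMP2 and THBS2 were separate in both populations and COL3A1 overlapped with EFEMP2, its neighbour in proliferating cells.

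Related matrix genes were looked up in 9 lists of 193 genes in all, of which 16 were in the table, the 6 genes included. Genes of these lists that are outside the table were not analysed here. Apart from the 6 genes, 9 of the 10 were higher in dormant cells by edgeR's quasi-likelihood test at a Benjamini-Hochberg adjusted p under 0.05, and 1 was lower. Among all listed genes, 49.6% were higher and 50.0% lower by the same rule. The median log2 fold change was 4.40 for these 10 genes and 3.27 for the 6 described genes, against -0.33 for all listed genes and 1.71 for the 576 listed genes that were higher in dormant cells. The authors' selection on this contrast decided which genes the table holds, and nearly all of them pass the threshold for that reason. The lists were also written with earlier results of these data known. These counts and medians therefore do not describe the lists as a whole, and no support is drawn from them.

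By list, the table held 2 of 11 fibrillar collagens (COL1A1 and COL3A1), 1 of 33 other collagens and 0 of 32 genes for collagen synthesis and crosslinking. It held 2 of 25 genes of elastic fibres and microfibrils (MFAP4 and EFEMP2), 4 of 31 genes for thrombospondins and other matricellular proteins, 3 of 13 small leucine-rich proteoglycans, 1 of 15 collagen and thrombospondin receptors, 1 of 12 genes for collagen degradation and its inhibitors, and 2 of 21 mesenchymal transcription factors. The other collagen was COL9A2, a chain of the fibril-associated type IX collagen of cartilage, with a log2 fold change of 2.28 (SE 0.50).

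All 3 proteoglycans bind collagen fibrils, and they had the largest fold changes among the matrix genes. BGN (biglycan) had between 9.75 and 14.5 normalized counts in proliferating and between 4528 and 7595 in dormant libraries, a log2 fold change of 8.88 (SE 0.40). LUM (lumican) had 4.35, 2.16 and 6.50 normalized counts in proliferating replicates 1 to 3 and 321, 1005 and 4190 in dormant replicates 1 to 3. DCN (decorin) had no count in proliferating replicate 1, 2.16 and 3.25 normalized counts in replicates 2 and 3, and 937, 738 and 30.4 in dormant replicates 1 to 3. LUM was thus highest and DCN lowest in dormant replicate 3.

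Among the matricellular genes, SPARC, a collagen-binding glycoprotein, had a log2 fold change of 2.13 (SE 0.36), and its relative SPARCL1 one of 8.02 (SE 0.69). MATN3, a matrilin of cartilage, had 4.21 (SE 0.97). The receptor gene was ITGA1, the alpha subunit of a collagen-binding integrin, with 1.72 (SE 0.41). The second transcription factor was TCF4, with 4.58 (SE 1.18). TIMP1, an inhibitor of matrix metalloproteinases, was the gene that was lower in dormant cells, with a log2 fold change of -0.93 (SE 0.17).

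**Figure D4:**
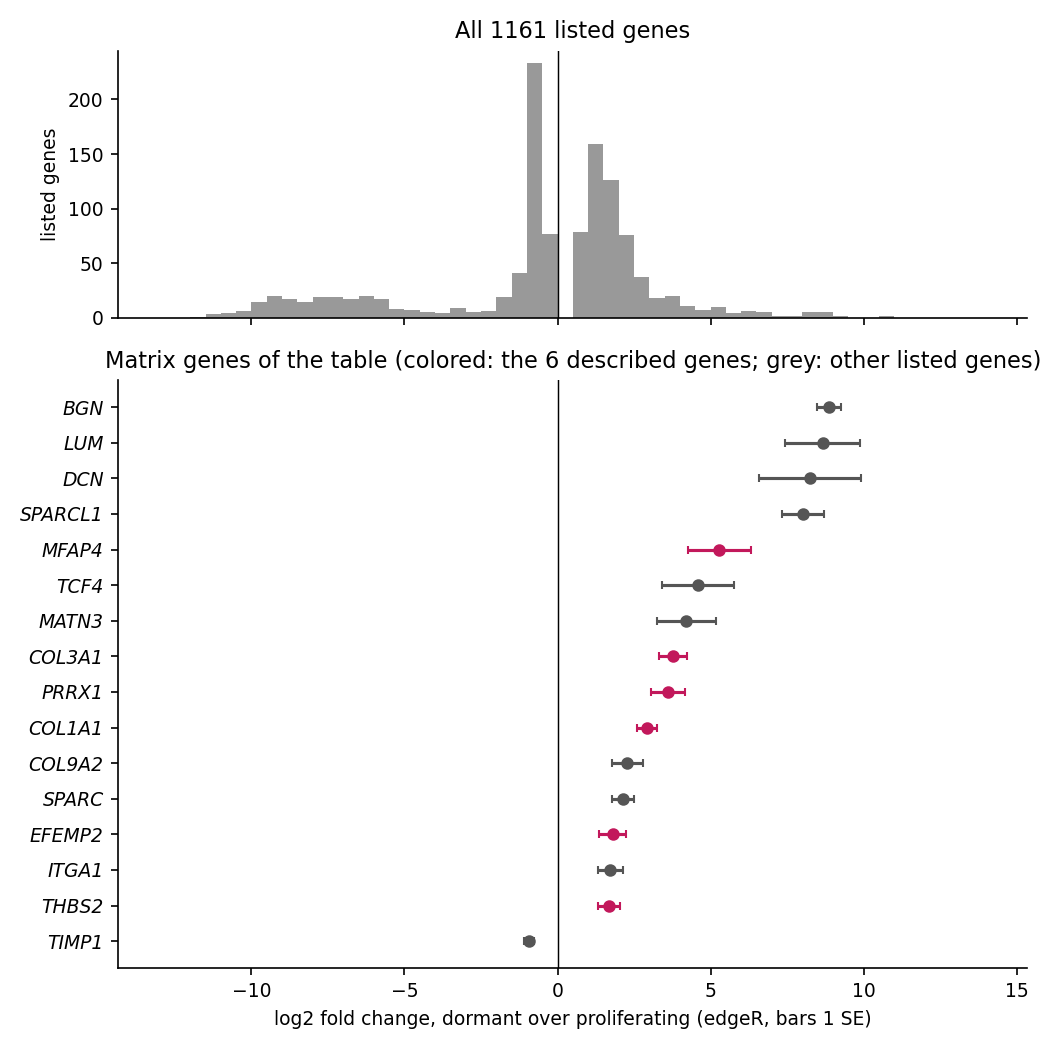
Top, number of listed genes by log2 fold change, dormant over proliferating, in steps of 0.5, over all 1161 listed genes. Bottom, log2 fold change with 1 SE from the edgeR fit for the 16 matrix genes, the 6 described genes in color; TIMP1 at -0.93 is the gene below 0.

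Few markers of other cell types were in the table. Those of fibroblasts, mural cells and endothelial cells had all dormant libraries above all proliferating ones, as had 49.0% of all listed genes. Markers outside the table were not analysed here, and LUM and DCN are also among the matrix genes above. Since the authors' selection on this contrast decided which markers are present, nothing is read from their direction. Of 13 fibroblast markers, LUM and DCN were in the table, with a summed level of 4.31 to 9.75 normalized counts in proliferating and 1258 to 4220 in dormant libraries. Of 12 mural cell markers, NOTCH3 and PDGFRB were present, with sums of 280 to 468 and 2879 to 5452. Of 10 endothelial markers, EMCN was present, with 1.45 to 71.2 and 362 to 1370. None of the microglial, oligodendrocyte or neuronal markers was in the table. DCN in proliferating replicate 1 was the marker at 0. Of 10 genes looked up for the cancer cells, only the epithelial keratins KRT8 and KRT18, which mark the cancer cells, were in the table. They summed to 211434 to 243206 in proliferating and 118901 to 155798 in dormant libraries. The 10 genes include ESR1, PGR and ERBB2, which a triple negative line lacks. They are therefore not all markers of MDA-MB-231 cells, and nothing is read from how many were in the table. The part of other cells, and of reads from conserved genes shared with mouse, in the levels of the 6 genes was not tested.

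The counting leaves some values uncertain. Multi-mapping reads entered the counts, and the deposited estimated counts were not whole in 6 of 6 libraries for COL1A1, 5 for MFAP4, 3 for COL3A1 and 1 for EFEMP2, whereas THBS2 and PRRX1 had whole counts in all libraries. For MFAP4 and COL3A1 the values that were not whole ended in 0.5. The annotation places MAPK7 on the strand opposite to MFAP4, MUS81 opposite to EFEMP2, and THBS2-AS1 opposite to THBS2, with overlapping spans. A long noncoding RNA gene without a symbol overlaps COL1A1 on the opposite strand, and another overlaps PRRX1 on the same strand. The microRNA genes MIR1245A, MIR1245B and MIR3606 overlap COL3A1, with MIR1245B on the opposite strand. Reads from these partners cannot be separated by strand in these libraries, and their part in the counts was not tested.

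The gene whose log2 level followed the mean profile of the 6 genes most closely over the 6 libraries was TAF8, a subunit of the transcription factor TFIID (Pearson's r = 0.996). It was followed by AC007493.1 (r = 0.995), GDF15, a stress-induced cytokine of the TGF-beta superfamily (r = 0.994), AC005726.2 (r = 0.994) and AL021026.1 (r = 0.993). The 6 points form separate populations of 3, so that these values describe mainly the gap between the populations. TAF8 differed far less in level than the 6 genes, with 2712, 3124 and 3152 normalized counts in proliferating and 4289, 4674 and 4876 in dormant replicates 1 to 3. With the population means removed, the closest genes were ETV6 (r = 0.982), DSEL (r = 0.981), SRSF8 (r = 0.970), DPY19L2 (r = 0.968) and DCAF10 (r = 0.968), again over 6 libraries. All genes of a library share its size factor. DPY19L2 had only 1.4, 6.5 and 13.8 normalized counts in proliferating replicates 1 to 3 and 10.5 in dormant replicate 1. Both sets of names are the highest values of a search across the listed genes, and they were not tested. Of the 6 genes themselves, which are part of the mean profile, COL1A1 followed it with r = 0.941 on that measure and PRRX1 with r = 0.044.

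RefSeq promoters (GRCh38.p14), taken as the 250 bases before the start, were matched for THBS2, EFEMP2 and PRRX1. The RefSeq starts lie inside the gene spans given above. The windows of EFEMP2 and PRRX1 are therefore wholly within those spans, and that of THBS2 partly. They were searched on both strands for the TATA box (TATAAA), the CCAAT box (CCAAT), the GC box (GGGCGG) and a homeodomain core (TAATTA). THBS2 had 1 TATAAA, which 10.7% of 35116 promoters hold. EFEMP2 had 5 matches to GGGCGG, some of which overlap one another and are not separate sites, and 42.6% of promoters hold at least 1. PRRX1 had 2 matches to CCAAT, which 32.0% of promoters hold. TAATTA, held by 4.35% of promoters, was in none of the 3 windows. The GC content was 60.0% for THBS2, 81.6% for EFEMP2 and 50.8% for PRRX1, against a median of 58.0%. None of these motifs was found in more than 1 of the 3 windows.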

How the data were processed

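Messenger RNA was measured in 3 dormant and 3 proliferating libraries. The authors used cutadapt for trimming and STAR for alignment to a joined genome of human (GRCh38.p12, with GENCODE release 31) and mouse (GRCm38.p6), left out reads assigned to mouse and kept multi-mapping reads in the counts. The deposited estimated counts are not normalized, and 43.2% to 49.6% of values per library were not whole. The deposited normalized counts are signal values, which the authors made by dividing whole-number counts by DESeq2 size factors. Normalized counts recomputed here differed from the deposited ones by at most 5e-05. The table also holds the mean over libraries and the authors' fold changes, standard errors, test statistics and p-values, which were not used.

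Groups were taken from the labels. The estimated counts, as whole numbers after rounding, were fitted with edgeR 4.0.16 (quasi-likelihood, R 4.3.3) over all 1161 genes with the authors' size factors and the population as the only term. Tests were two-sided, with Benjamini-Hochberg adjustment across the 1161 genes and a threshold of 0.05. The dispersion comes from genes selected for a difference and need not be that of all genes. Alternatives were TMM and median-of-ratios factors over the table, DESeq2 1.42.0, limma 3.58.1 on log2 of the normalized count plus 1 or 0.5, a minimum of 10 counts in 3 libraries, a replicate block and each library left out. The fits were also run on simulated data, with the same dispersion for every gene, no pool effect and most genes unchanged. The deposited table differs in these respects, so no support is drawn from that run.

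Libraries of equal replicate number share a pool of mice, which gives the pairing. The correlation of their deviations from the population means was 0.057, -0.018 and 0.001. Named are the 6 genes, the matrix genes of the table, with values for those changed at least 2-fold and for TIMP1, the 5 genes closest to the mean profile by either measure, and the listed cell type markers, of which 1 list is not reported here. The genes, lists and markers were chosen with earlier results of these data known. Lengths, exons and coordinates are from GENCODE release 44 on GRCh38, which matched 1156 genes, and levels per kb used the union of all annotated exons. The sequences are from the GRCh38 genome. Python 3.11.15, numpy 2.4.6, pandas 2.3.3 and matplotlib 3.10.9 were used.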

Additional observations from a re-analysis of the deposited data

How the results depend on the processing

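The fold changes of the 6 genes kept their direction and stayed at or above 2-fold under all alternatives run. For each of them all dormant libraries lay above all proliferating ones, so that leaving out 1 library could not reverse a direction. The genes were also chosen by this contrast, and no support is drawn from the kept direction. Median-of-ratios factors computed over the table moved the median log2 fold change of all listed genes by -0.585. With these factors 346 genes were called higher and 585 lower, so that 37.2% of calls were higher in place of 49.8%. At least 2-fold higher were 316 genes and at least 2-fold lower 562 genes, in place of 497 and 275. The log2 fold changes of all 6 genes were then smaller than in the main fit. They were 2.31 for COL1A1, 3.17 for COL3A1, 1.09 for THBS2, 4.60 for MFAP4, 1.18 for EFEMP2 and 2.99 for PRRX1. TMM factors over the same table moved that median by -0.036. The cause was not tested. With the replicate block, 544 genes were higher and 553 lower. The log2 fold changes were then 2.87 (SE 0.20) for COL1A1, 3.91 (SE 0.43) for COL3A1, 1.75 (SE 0.31) for THBS2, 5.50 (SE 0.58) for MFAP4, 1.69 (SE 0.50) for EFEMP2 and 3.66 (SE 0.49) for PRRX1. All SEs given elsewhere are from the fit without the block, which leaves out the pairing by pool. The block changed no direction among the 6 genes, and could not, since each was higher in the dormant library of every pool. The minimum of 10 counts removed no gene, so that it repeated the main fit. Leaving out 1 library at a time gave 534 to 566 genes higher, 555 to 578 lower, 448 to 505 at least 2-fold higher and 270 to 294 at least 2-fold lower. The log2 fold changes then ranged from 2.60 to 3.19 for COL1A1, 3.51 to 4.42 for COL3A1, 1.39 to 1.85 for THBS2, 4.48 to 6.06 for MFAP4, 1.34 to 2.09 for EFEMP2 and 3.29 to 3.87 for PRRX1, and 15 matrix genes were higher in each case. COL3A1 was highest without proliferating replicate 3, MFAP4 lowest without dormant replicate 3 and highest without proliferating replicate 2. Transcript length as a measure of level, chosen after seeing the data, exchanged THBS2 (place 4) and EFEMP2 (place 3) in proliferating cells and changed which neighbours overlapped. With 3 libraries per population and no depth known beyond the listed genes, small differences between neighbouring levels could not be resolved.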
